A study of Mus musculus with 11 samples.

Results

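The genes described here are 40 interferon-stimulated antiviral genes, a list of the regulators, sensors and effectors that interferons are known to induce in mouse cells. A gene was found by its symbol in the platform annotation, only through probe sets that carry a single symbol, and was represented by the probe set with the highest mean intensity over all arrays. Of the 40 genes, 37 were measured in this way and all 37 were bright enough to be tested, among 18193 genes measured and 15623 tested in all. Isg15 and Tgtp1 lie only on probe sets that carry several symbols, so no value is given for them, and the expression of Ifi44 was not analysed here.

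Cells that meet double-stranded RNA or other signs of infection secrete type I interferon. Interferon binds a receptor that activates JAK kinases and, through them, the complex ISGF3, which contains STAT2 and IRF9. ISGF3 binds the interferon-stimulated response element (ISRE) in front of its target genes, and genes that respond to interferon gamma often carry a gamma-activated site (GAS). Many of the induced genes encode the sensors and transcription factors of the same pathway, and adipocytes express the receptors and respond to interferon.

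The arrays were made from 3T3-L1 cells, a mouse preadipocyte line that was differentiated to adipocytes in culture. Control cells (3 arrays) are labelled as untreated. CI cells (2 arrays) received 10 nM insulin in 4 additions, TNF cells (3 arrays) were kept for 4 days with TNF alpha at 2 ng/ml, and DEX cells (3 arrays) received 20 nM dexamethasone, a synthetic glucocorticoid, for 8 days. All groups share the line and its differentiation, and were processed on the same day after differentiation. An ethanol carrier of 0.01% is named as the control of dexamethasone, yet control cells are labelled as receiving nothing, so whether they had the carrier is unclear. No label ties the experimental replicates of a group to different cultures. The p-values therefore rest only on how far these arrays spread, which may be technical.

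Array medians of the deposited intensity lay between 124.5 and 129.5, and the arrays of a group correlated at a Spearman coefficient of 0.996 to 0.998 across all probe sets. The precision of every value is limited by the 2 or 3 arrays of a group. The adipocyte markers Adipoq and Fabp4 had intensities of 22828 ± 510 and 22632 ± 390 (SD, n = 3) in control. All 10 glucocorticoid receptor targets tested rose in DEX, among them Fkbp5 by 2.71 and Tsc22d3 by 1.99 on the log2 scale, where 14.0% of all tested genes rose. In CI 2 of the 10 rose and 1 fell, where 8.38% of all tested genes rose and 8.88% fell. In TNF 3 of the 10 rose and 0 fell, where 13.9% of all tested genes rose and 11.2% fell. This list was chosen with earlier results of these data known, so it is not independent support. In these bulk samples fewer cells of a type and less RNA per cell cannot be told apart.

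The sequences in front of the genes were searched for the elements named above. RefSeq (GRCm38.p6) gave promoters for 31 of the 40 genes and for 27025 genes in all. The 250 bases before each start were searched for 2 short motifs. A gene with several promoters was counted when any of them held a match. The ISRE was searched as GAAANNGAAA, which reads TTTCNNTTTC on the other strand. The GAS was searched as TTCNNNGAA, which is its own reverse complement. Overlapping matches were allowed, and the motifs were searched independently of each other. ISRE letters were found for 12 of the 31 genes (38.7%), against 936 (3.46%) of all genes. By class they were found for 5 of the 6 GTPase genes with a promoter, for 3 of the 6 Ifit and Oas genes, and for 4 of the 19 others. GAS letters were found in 7 of 31 (22.6%), against 8.13% of all genes. A match describes the reference sequence and is not a measured binding site.

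The promoters below are those of the tested genes with ISRE letters in front of the annotated start, for which the intensities follow. Each window is 60 bases of GRCm38.p6, written 5′ to 3′ on the strand of the gene, with the ISRE letters in capitals and all other bases in lower case. Overlapping matches form longer capital runs in Oas1a, Irgm1, Gbp3 and Bst2, and Ifit1 holds 2 separate matches. Ifit3 has a further match upstream of its window. Another annotated promoter of Gbp3, not shown, held no ISRE letters. The 4 GTPase promoters come first, followed by those of the Ifit and Oas genes and then Rsad2, Bst2 and Stat2.
Igtp (chr11:58199496-58199555, plus strand): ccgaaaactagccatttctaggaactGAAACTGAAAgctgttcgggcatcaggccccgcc
Irgm1 (chr11:48871421-48871480, minus strand): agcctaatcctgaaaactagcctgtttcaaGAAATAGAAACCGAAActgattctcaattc
Gbp2 (chr3:142620579-142620638, plus strand): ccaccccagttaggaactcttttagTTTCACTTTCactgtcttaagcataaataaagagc
Gbp3 (chr3:142559980-142560039, plus strand): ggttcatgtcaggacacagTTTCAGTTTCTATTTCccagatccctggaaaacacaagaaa
Ifit1 (chr19:34640779-34640838, plus strand): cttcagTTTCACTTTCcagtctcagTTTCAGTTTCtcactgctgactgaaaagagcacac
Ifit3 (chr19:34583382-34583441, plus strand): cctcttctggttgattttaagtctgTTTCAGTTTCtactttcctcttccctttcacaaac
Oas1a (chr5:120907526-120907585, minus strand): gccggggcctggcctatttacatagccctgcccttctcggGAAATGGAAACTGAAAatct
Rsad2 (chr12:26456538-26456597, minus strand): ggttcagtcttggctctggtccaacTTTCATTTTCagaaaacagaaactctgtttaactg
Bst2 (chr8:71537562-71537621, minus strand): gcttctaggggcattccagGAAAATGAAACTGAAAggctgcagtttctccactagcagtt
Stat2 (chr10:128270251-128270310, plus strand): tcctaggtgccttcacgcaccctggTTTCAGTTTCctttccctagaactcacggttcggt
In these windows the match nearest the start began 14 bases before it in Oas1a, 24 in Irgm1, 34 in Igtp, 39 in Gbp3, 59 in Gbp2, 85 in Ifit1, 120 in Rsad2, 122 in Ifit3, 124 in Bst2 and 222 in Stat2. All 10 of these genes fell in DEX, as did 35 of the 37 tested genes of the list and 13.6% of all tested genes. The other tested genes with a promoter in the table held no ISRE letters in the 250 bases. They fell as well, except Irf1 and Oasl1, which did not pass the test. Those that fell were Irf7, Irf9, Ifih1, Ddx58, Oasl2, Ifit2, Ifi47, Cmpk2, Trim25, Eif2ak2, Adar, Ifi35, Xaf1, Samd9l, Lgals3bp and Sp100. The absence of the letters says only that they are not in this window.

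Without treatment the list was already well above the dim end of the array. In control the means of the 37 genes ran from 204 ± 18.1 for Oasl1 to 12479.5 ± 584 for Ifit3 (SD, n = 3), with a median of 2899 over the genes. All 37 lay above the median of all probe sets (129), and 32 lay above 1000. That median also covers the dimmer probe sets of a gene and those without a symbol. Each of the 37 genes is represented by its brightest probe set, which places it higher. The share of all genes above these levels is not given here. The spread between control arrays was small, with a median coefficient of variation of 5.9% and the highest, 17.3%, for Mx1. Levels come from different probe sets and are not ordered between genes. The GTPases had control means from 453 ± 78.2 (Mx1) to 7465 ± 293 (Iigp1), and the 6 Ifit and Oas genes spanned the whole range of the list. Of the genes of the interferons themselves, Ifnb1, which encodes interferon beta, had a control mean of 114 ± 7.05, and the 5 alpha interferon genes tested had means from 66.8 (Ifna4) to 195.5 (Ifna9).

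Nearly the whole list was lower in DEX than in control. Of the 37 genes 35 fell in DEX against control and 0 rose (limma, adjusted p under 0.05; also 0 higher and 35 lower at an unadjusted p under 0.05), where 13.6% of all tested genes fell and 14.0% rose. The median log2 fold change was -1.43 over the list and 0.02 over all genes tested. In 26 genes the fall was more than 2-fold, against 1.11% of all genes. In 35 genes every DEX array lay below every control array, which held for 18.7% of all genes. Irf1 and Oasl1 were the 2 exceptions. These counts were the same, 0 higher and 35 lower, under all 21 alternative settings.

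Part of the list was higher in CI, by smaller amounts. In CI 12 of the 37 genes rose, which is 32.4% of them against 8.38% of all tested genes, and 0 fell (limma; 20 higher and 0 lower at an unadjusted p under 0.05), against 8.88% of all genes. The median log2 fold change was 0.24, against 0.01 over all genes, and no change was over 2-fold. In 27 of the 37 genes both CI arrays lay above all control arrays, which held for 24% of all genes, and in 1 gene, Irf7, both lay below. The genes that rose were Zbp1, Rsad2, Eif2ak2, Usp18, Ifih1, Oas1a, Igtp, Ddx58, Samd9l, Mx2, Ifi35 and Adar. The count of increases was 22 without DEX replicate 2, which is in neither group compared, 20 with only the CI and control arrays in the fit, and 8 without CI replicate 1 or without CI replicate 2.

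In TNF genes of the list changed in both directions. Of the 37 genes 7 rose (18.9%, against 13.9% of all tested genes) and 3 fell (8.11%, against 11.2% of all genes), shares close to those of all genes. The median log2 fold change was -0.01 over the list and -0.01 over all genes. Ifit2, Sp100, Parp14, Oas1a, Bst2, Irf1 and Gbp2 rose, and Rsad2, Mx2 and Lgals3bp fell. No change was over 2-fold. The number of decreases was 9 without DEX replicate 2 and with only the TNF and control arrays in the fit, and 1 without TNF replicate 3. The comparisons of CI, TNF and DEX with control share the same 3 control arrays, so their values for a gene are given side by side below and are not correlated with each other.

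**Figure D1:**
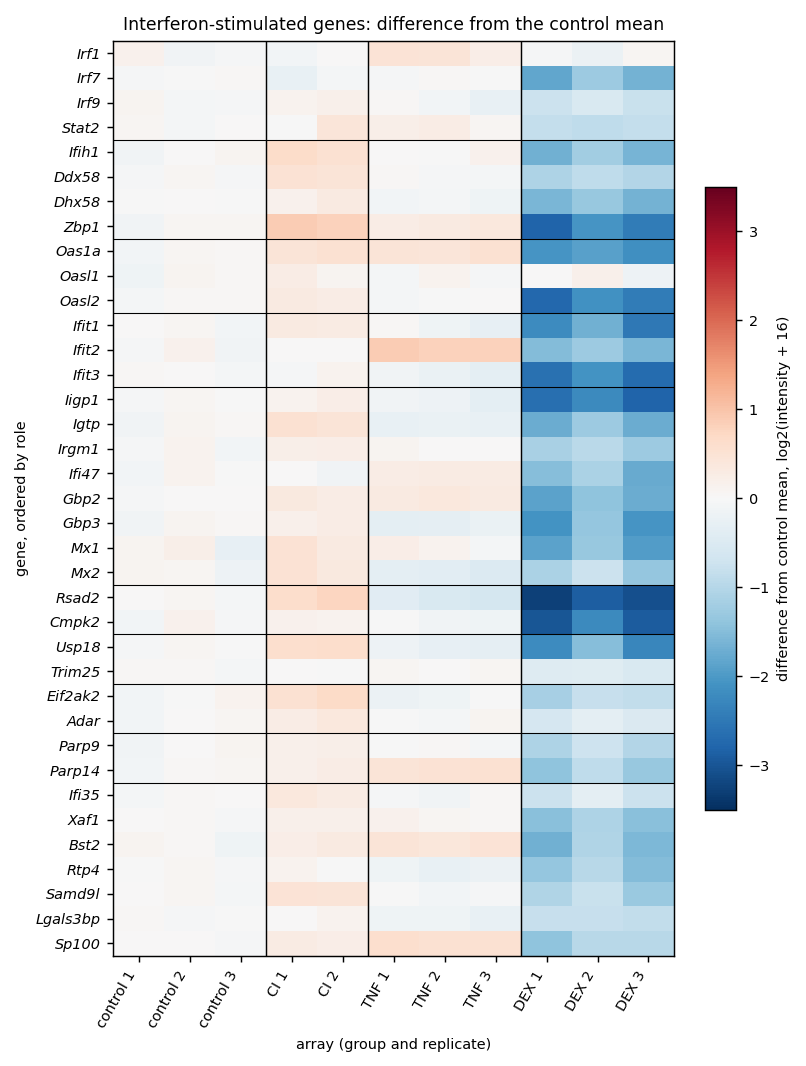
Each cell is the difference of 1 array from the mean of the control arrays, on the log2(intensity + 16) scale, for the 37 genes (rows, by role) and the 11 arrays (columns, by group and replicate); black lines separate roles and groups. The DEX columns are blue for nearly every gene, with medians of -1.49, -1.08 and -1.56 for replicates 1, 2 and 3, while the CI columns are pale red (medians 0.24 and 0.27).

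The GTPases are described apart from the other effectors. These large enzymes, of the immunity-related (IRG), guanylate-binding (GBP) and Mx families, bind the membranes of vacuoles that hold intracellular parasites or bacteria, or block virus particles. Of the 9 listed, 8 were tested, and all 8 fell in DEX by more than 2-fold, from -1.06 (Mx2) to -2.56 (Iigp1) with a median of -1.62. In CI 2 of the 8 rose, Igtp and Mx2 (median 0.26; 5 higher at an unadjusted p under 0.05). In TNF 1 rose, Gbp2, and 1 fell, Mx2 (median -0.08). Without DEX replicate 2 the increases in CI were 6 and the decreases in TNF 4, and without CI replicate 1 no GTPase gene passed in CI. For all 8 genes the DEX arrays lay below all control arrays without overlap, which held for 18.7% of all tested genes. Of all tested genes 13.6% fell in DEX, 1.11% by more than 2-fold. In CI 8.38% of them rose, and in TNF 13.9% rose and 11.2% fell. These shares also stand beside the counts of the classes below. The TNF counts of the GTPases, 12.5% in each direction, were close to them.

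Iigp1 encodes an IRG protein that attacks the vacuole of Toxoplasma, and its intensities were 7251, 7799 and 7346 in control, 8152 and 8774 in CI, 6789, 6651 and 5912 in TNF, and 1183, 1579 and 1049 in DEX. The DEX arrays stood far below the others, while both CI arrays lay above and the TNF arrays just below the control arrays. The change in DEX was -2.56 (SE 0.109, adjusted p = 2.1e-10), and a second probe set gave an untested difference of -2.60. In TNF the change was -0.21 (SE 0.109, adjusted p = 0.172), which passed without DEX replicate 2 (adjusted p = 0.0314). Igtp, another IRG gene, had intensities of 2646, 3096 and 2956 in control, 4176 and 3939.5 in CI, 2427, 2447 and 2405 in TNF, and 862, 1187 and 862 in DEX. Both CI arrays lay above the control arrays, the TNF arrays below them, and the DEX arrays lower still. Its changes were 0.49 (SE 0.111, adjusted p = 0.00711) in CI, -0.25 (SE 0.0989, adjusted p = 0.0763) in TNF and -1.58 (SE 0.0989, adjusted p = 1.24e-08) in DEX. The CI call was lost without CI replicate 1 (adjusted p = 0.0754), and Igtp passed as lower in TNF without DEX replicate 2 (0.00672) or without control replicate 1 (0.0498).

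Gbp2, a guanylate-binding protein gene, gave intensities of 2874, 3013 and 3003 in control, 3724 and 3559 in CI, 3698, 3844 and 3680.3 in TNF, and 798, 1116 and 873 in DEX. The CI and TNF arrays overlapped each other and lay above the control arrays. In TNF the change was 0.33 (SE 0.0896, adjusted p = 0.0132) and in CI it was 0.30 (SE 0.1, adjusted p = 0.0555). The change in DEX was -1.67 (SE 0.0896, adjusted p = 2.17e-09). Its brightest probe set is of a type (suffix _x_at) that can bind related transcripts, and the other probe set differed by -1.65 in DEX, untested. In CI Gbp2 passed without DEX replicate 1 (adjusted p = 0.0259) and without DEX replicate 2 (0.00332).

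Mx2 was the GTPase gene that passed in CI and in TNF in opposite directions. Its intensities were 1571, 1531 and 1304 in control, 2089 and 1864 in CI, 1151, 1128 and 1053 in TNF, and 675, 867 and 564 in DEX. The order CI, control, TNF, DEX held without overlap between any neighbouring groups. The change was 0.43 (SE 0.13, adjusted p = 0.0344) in CI, -0.39 (SE 0.116, adjusted p = 0.022) in TNF and -1.06 (SE 0.116, adjusted p = 4.94e-06) in DEX. The CI call was lost without either CI array or without control replicate 2 or 3 (adjusted p from 0.06 to 0.253). The TNF call was lost without control replicate 1 or 2 or TNF replicate 2 or 3 (0.0507 to 0.0821). The other 4 GTPase genes, Irgm1, Ifi47, Gbp3 and Mx1, fell in DEX by 1.11, 1.46, 1.84 and 1.72 and did not pass in CI or TNF. Irgm1, Gbp3 and Mx1 passed as higher in CI without DEX replicate 2 (adjusted p = 0.045, 0.0415 and 0.0348). Without that array Ifi47 passed as higher in TNF (0.0198, and 0.0372 without DEX replicate 3) and Gbp3 as lower (0.00278).

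The Ifit and Oas genes encode effectors that act on viral RNA. IFIT proteins bind viral RNA and block its translation, and OAS enzymes make the messenger that switches on RNase L. All 6 were tested. Of all tested genes 13.6% fell in DEX, 8.38% rose in CI, and 13.9% rose and 11.2% fell in TNF. In DEX 5 fell, each by more than 2-fold, and 1, Oasl1, did not pass (median of the 6, -2.08). In CI 1 of the 6 rose, Oas1a (median 0.24; 2 higher at an unadjusted p under 0.05). In TNF 2 rose, Ifit2 and Oas1a, and 0 fell (limma, also 0 at an unadjusted p under 0.05; median -0.01). The increases in CI were 2 without DEX replicate 1 and 3 without DEX replicate 2. The medians of the GTPases and of the Ifit and Oas genes in DEX were -1.62 and -2.08, and the difference between the classes was not tested, since genes are not replicates.

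Ifit3 had intensities of 12926, 12694 and 11818 in control, 12150.3 and 13613 in CI, 11525, 10695 and 9791 in TNF, and 2034, 2915 and 1927 in DEX. The CI arrays overlapped the control arrays, the TNF arrays lay just below them and the DEX arrays far below. The change in DEX was -2.46 (SE 0.118, adjusted p = 6.62e-10). In TNF it was -0.23 (SE 0.118, adjusted p = 0.176), which passed without DEX replicate 2 (adjusted p = 0.0249). Ifit2 behaved otherwise in TNF, with intensities of 1458, 1668 and 1368 in control, 1520.0 and 1520.3 in CI, 2797, 2641 and 2598 in TNF, and 508, 608 and 483 in DEX. All TNF arrays lay above all other arrays, CI overlapped control, and DEX lay below both. The change was 0.84 (SE 0.0833, adjusted p = 3.74e-06) in TNF, 0.03 (SE 0.0932, adjusted p = 0.9) in CI and -1.47 (SE 0.0833, adjusted p = 4.26e-09) in DEX. For Ifit1 the change in DEX was -2.13 (SE 0.144, adjusted p = 2.65e-08), from a control mean of 8676 ± 506 to 2028 ± 599, and it passed in CI only without DEX replicate 2 (adjusted p = 0.0458) or with only the CI and control arrays in the fit (0.0122).

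Oas1a, an enzyme of the OAS family, had intensities of 2232, 2503 and 2467 in control, 3266 and 3488 in CI, 3284, 3224 and 3471 in TNF, and 566, 636 and 531 in DEX. The CI and TNF arrays overlapped and lay above the control arrays, and DEX lay below. It rose in CI by 0.49 (SE 0.0779, adjusted p = 0.000572) and in TNF by 0.47 (SE 0.0697, adjusted p = 0.000158), and its change in DEX was -2.03 (SE 0.0697, adjusted p = 1.93e-11). Oasl2 belongs to the OAS-like branch of the family, and its intensities were 3935, 4228 and 4205 in control, 5111 and 4964 in CI, 3952, 4079 and 4189 in TNF, and 596, 932 and 736 in DEX. The DEX arrays lay far below the overlapping control and TNF arrays, and both CI arrays lay above these. The change was -2.45 (SE 0.108, adjusted p = 3.07e-10) in DEX and 0.29 (SE 0.121, adjusted p = 0.124) in CI, where it passed without DEX replicate 1 (adjusted p = 0.0284) or 2 (0.0184).

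Oasl1, an OAS-like gene, was the exception among these effectors. Its control mean, 204, was the lowest of the list, and it had only 1 probe set of a single symbol. This mean lay near those of Ifna9 (195.5) and Ifna1 (192.7). A change can be missed at such a low signal, so the values do not show that Oasl1 is unresponsive. Its intensities were 184, 218 and 210.1 in control, 249 and 218 in CI, 191, 222 and 197 in TNF, and 206, 232 and 177 in DEX. The control, TNF and DEX arrays overlapped, and the lower CI array barely exceeded the highest control array. The changes were 0.18 (SE 0.101, adjusted p = 0.258) in CI, -0.00 (SE 0.0906, adjusted p = 0.985) in TNF and 0.00 (SE 0.0906, adjusted p = 0.99) in DEX.

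**Figure D2:**
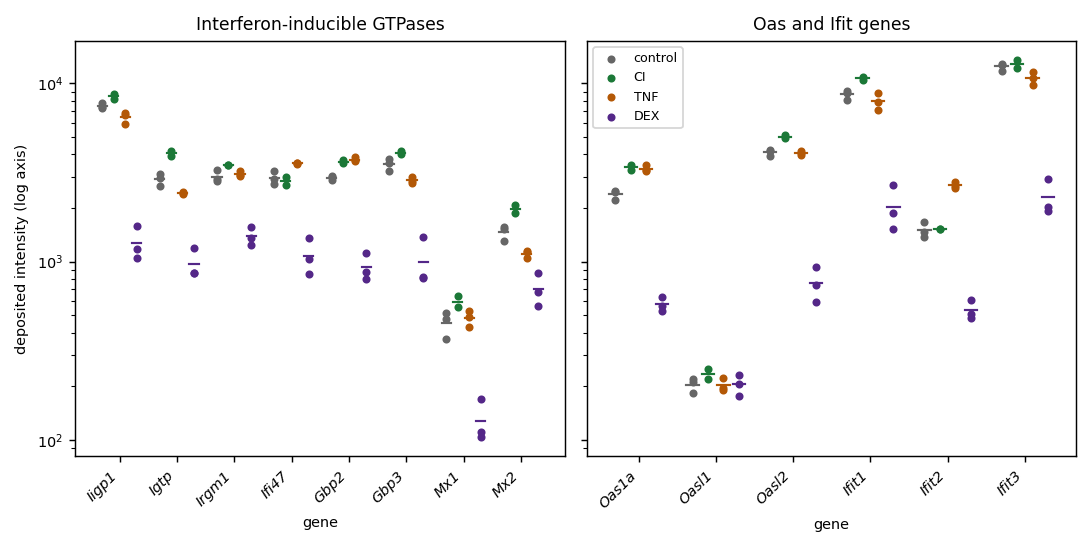
Deposited intensity (log axis) of the 8 GTPase genes (left) and the 6 Oas and Ifit genes (right); each point is 1 array, coloured by group, and short lines are group means. DEX points lie below the control points for all genes shown except Oasl1, and the TNF points of Ifit2 (2598 to 2797) lie above all others of that gene.

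Of the transcription factors of the pathway most, but not all, fell in DEX. IRF9 and STAT2 are parts of ISGF3, IRF7 is the factor that amplifies interferon production, and IRF1 is induced by interferon gamma and also by TNF. In DEX 3 of the 4 fell, Irf7, Stat2 and Irf9, and Irf1 did not pass. In CI 0 of 4 passed (limma, also 0 at an unadjusted p under 0.05), and in TNF Irf1 rose. Irf7 had intensities of 2354, 2366 and 2495 in control, 1987 and 2277 in CI, 2344, 2494 and 2395 in TNF, and 664, 987 and 756 in DEX. The DEX arrays lay below all others, both CI arrays lay just below the control arrays, and TNF overlapped control. The changes were -1.58 (SE 0.104, adjusted p = 1.99e-08) in DEX and -0.18 (SE 0.116, adjusted p = 0.359) in CI.

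Irf1 gave intensities of 2299, 1884 and 1999 in control, 1925 and 2056 in CI, 2868, 2788 and 2405 in TNF, and 2004, 1792 and 2174 in DEX. The TNF arrays lay above all other arrays, while control, CI and DEX overlapped. It rose in TNF by 0.38 (SE 0.0879, adjusted p = 0.00526) and its change in DEX was -0.05 (SE 0.0879, adjusted p = 0.732), with no fall detected. Irf9 fell in DEX by 0.68, from 1223 ± 82.4 to 758 ± 75, and Stat2 by 0.84, from 924 ± 42.1 to 507 ± 10.8. Stat2 did not pass in CI with both arrays (adjusted p = 0.178), and passed as higher without CI replicate 1, the lower of the 2 (0.00914).

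The sensors of foreign nucleic acid fell in DEX and mostly rose in CI. Ddx58 encodes RIG-I and Ifih1 encodes MDA5, the cytoplasmic receptors of viral RNA, Dhx58 encodes their regulator LGP2, and Zbp1 binds nucleic acid in the Z form and triggers cell death. In DEX 4 of 4 fell, with a median of -1.51. In CI 3 of 4 rose, with a median of 0.53, and the fourth, Dhx58, was at 0.24 (SE 0.0863, adjusted p = 0.0739). In TNF 0 of 4 passed (limma; 1 higher at an unadjusted p under 0.05).

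Zbp1 had intensities of 1174, 1350.4 and 1337 in control, 2376 and 2237 in CI, 1537, 1598 and 1653 in TNF, and 171, 298 and 222 in DEX. Every CI array lay above every TNF array, every TNF array above every control array, and every DEX array below them. The change was 0.84 (SE 0.143, adjusted p = 0.000995) in CI, the largest increase of the list there, 0.31 (SE 0.128, adjusted p = 0.0913) in TNF and -2.43 (SE 0.128, adjusted p = 1.67e-09) in DEX. In TNF it passed without DEX replicate 1 (adjusted p = 0.0208) or 2 (0.013). Ifih1 gave 1044, 1159 and 1229 in control, 1788 and 1669 in CI, 1154, 1138 and 1269.7 in TNF, and 344, 484 and 358 in DEX. The CI arrays stood above all others and TNF overlapped control. The change was 0.59 (SE 0.114, adjusted p = 0.00241) in CI and -1.51 (SE 0.102, adjusted p = 2.72e-08) in DEX. Ddx58 gave 2836, 3019.9 and 2832 in control, 4087 and 3985 in CI, 2988, 2829 and 2774 in TNF, and 1367, 1559 and 1419 in DEX. The pattern was that of Ifih1, with CI above and DEX below. The change was 0.48 (SE 0.0665, adjusted p = 0.000216) in CI and -0.99 (SE 0.0594, adjusted p = 7.61e-09) in DEX, where its other probe sets differed by -0.83 and -0.09, untested. Dhx58 fell in DEX by 1.52 and passed in CI without DEX replicate 2 (adjusted p = 0.0166).

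Rsad2 and its neighbour Cmpk2 form the viperin locus. Viperin makes a nucleotide that stops viral RNA synthesis from the substrate that CMPK2 supplies. Rsad2 showed the largest fall of the list, with intensities of 3865, 4001 and 3677 in control, 5883 and 6473 in CI, 2913, 2655 and 2523 in TNF, and 385, 509.6 and 443 in DEX. The groups followed the order CI, control, TNF, DEX with no overlap. The change was 0.68 (SE 0.0961, adjusted p = 0.000239) in CI, -0.51 (SE 0.0859, adjusted p = 0.000464) in TNF and -3.07 (SE 0.0859, adjusted p = 1.53e-12) in DEX, and its 2 other probe sets differed in the same directions (0.75 and 0.82 in CI, -0.53 and -0.62 in TNF, -3.36 and -2.41 in DEX, untested). Cmpk2 had intensities of 1394, 1653 and 1434 in control, 1655 and 1622 in CI, 1467, 1378 and 1344 in TNF, and 172, 307 and 184 in DEX. Only the DEX arrays stood apart, below all others. The change was -2.71 (SE 0.144, adjusted p = 1.98e-09) in DEX, where the second probe set differed by -1.42, and 0.14 (SE 0.161, adjusted p = 0.643) in CI.

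Usp18 removes the ubiquitin-like protein ISG15 from its targets and also blocks the interferon receptor. Its intensities were 4924, 5378 and 5004 in control, 7704 and 7768 in CI, 4469.8, 4151 and 4129.6 in TNF, and 1105, 1799 and 1028 in DEX. Both CI arrays lay above, the TNF arrays below and the DEX arrays far below the control arrays. The change was 0.60 (SE 0.159, adjusted p = 0.0167) in CI, -0.26 (SE 0.142, adjusted p = 0.194) in TNF and -1.99 (SE 0.142, adjusted p = 4.74e-08) in DEX. The CI call was lost without control replicate 1 (adjusted p = 0.0522) or without CI replicate 1 (0.0938) or 2 (0.0862), and in TNF it passed without DEX replicate 2 (0.00351). Trim25, the ubiquitin ligase that activates RIG-I, fell in DEX by 0.47 and was at -0.00 in CI, where one of its other probe sets differed by 0.55, untested.

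Eif2ak2 encodes PKR, the kinase that shuts down translation when it binds double-stranded RNA, and Adar encodes the editing enzyme that alters such RNA. Both rose in CI and fell in DEX, and neither passed in TNF. Eif2ak2 gave intensities of 798, 860.4 and 933 in control, 1251 and 1384 in CI, 752, 775 and 852 in TNF, and 373, 482 and 468 in DEX. CI lay above and DEX below the overlapping control and TNF arrays. The change was 0.60 (SE 0.0994, adjusted p = 0.000783) in CI and -0.95 (SE 0.0889, adjusted p = 9.91e-07) in DEX. Adar gave 1465, 1565 and 1649 in control, 1879 and 2007 in CI, 1541, 1483 and 1675 in TNF, and 1028, 1216 and 1092 in DEX. The order was the same with smaller distances. The change was 0.31 (SE 0.0794, adjusted p = 0.0129) in CI and -0.48 (SE 0.071, adjusted p = 9.78e-05) in DEX, and the CI call was lost without control replicate 1 (adjusted p = 0.0535) or CI replicate 2 (0.113).

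Parp9 and Parp14 belong to the family of ADP-ribosyltransferases, and both fell in DEX. Parp9 had intensities of 3362, 3689 and 3857 in control, 4130.5 and 4194 in CI, 3624, 3757 and 3475 in TNF, and 1706, 2190.1 and 1788 in DEX. DEX lay below all other arrays, TNF overlapped control, and both CI arrays lay above. The change was -0.94 (SE 0.0815, adjusted p = 4.21e-07) in DEX and -0.01 (SE 0.0815, adjusted p = 0.97) in TNF. Parp14 had intensities of 1142, 1263 and 1289 in control, 1399.7 and 1489 in CI, 1694, 1749.6 and 1799 in TNF, and 454, 653 and 482 in DEX. All TNF arrays lay above all CI arrays, and these above all control arrays. The change was 0.50 (SE 0.1, adjusted p = 0.00191) in TNF, 0.23 (SE 0.112, adjusted p = 0.193) in CI and -1.21 (SE 0.1, adjusted p = 2.62e-07) in DEX. In CI Parp14 passed without DEX replicate 2 (adjusted p = 0.025). A dim second probe set of Parp14 differed by -0.21 in DEX, untested.

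The 7 tested genes of the last class all fell in DEX. Bst2 encodes tetherin, which holds budding viruses on the cell surface, and its intensities were 4840.0, 4674 and 4112 in control, 5359 and 5688 in CI, 6142, 5996 and 6326 in TNF, and 1403, 2178 and 1526 in DEX. Both CI arrays lay above the control arrays, the TNF arrays lay above these, and DEX lay far below. The change was 0.44 (SE 0.118, adjusted p = 0.0135) in TNF, 0.28 (SE 0.132, adjusted p = 0.169) in CI and -1.43 (SE 0.118, adjusted p = 2.56e-07) in DEX. The TNF call was lost without control replicate 3 (adjusted p = 0.0593), and in CI Bst2 passed without DEX replicate 2 (0.0144). Sp100, a protein of nuclear bodies, gave intensities of 241, 243 and 232 in control, 298 and 286 in CI, 364, 349.5 and 351 in TNF, and 79.8, 115 and 114 in DEX. TNF, CI, control and DEX followed each other with no overlap. The change was 0.54 (SE 0.0916, adjusted p = 0.000488) in TNF, 0.27 (SE 0.102, adjusted p = 0.0847) in CI, which passed without DEX replicate 1 (0.00459), and -1.11 (SE 0.0916, adjusted p = 2.41e-07) in DEX.

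Samd9l, a restriction factor of some viruses, had intensities of 4550.2, 4678 and 4286 in control, 6249 and 6151 in CI, 4481, 4238 and 4413 in TNF, and 2179, 2614 and 1818 in DEX. CI lay above and DEX below control and TNF. The change was 0.46 (SE 0.105, adjusted p = 0.00718) in CI, lost without CI replicate 1 (adjusted p = 0.06), and -1.04 (SE 0.094, adjusted p = 6.73e-07) in DEX. Ifi35 had intensities of 4934, 5267 and 5218 in control, 6643 and 6293 in CI, 4971, 4732 and 5303 in TNF, and 3030.2, 4061 and 3052 in DEX. The same order held, with DEX replicate 2 between the other DEX arrays and the control arrays. The change was 0.33 (SE 0.102, adjusted p = 0.0371) in CI and -0.62 (SE 0.0914, adjusted p = 0.000111) in DEX. The CI call of Ifi35 was lost without any 1 of the 5 CI and control arrays (adjusted p from 0.058 to 0.222). Xaf1, Rtp4 and Lgals3bp fell in DEX by 1.34, 1.28 and 0.83. Lgals3bp encodes a secreted glycoprotein, and its intensities were 11767, 10999 and 11318 in control, 11434 and 12418 in CI, 10291, 10162 and 9417 in TNF, and 6477, 6457 and 6272 in DEX. The TNF arrays lay below the control arrays by little and the DEX arrays by more. Its change in TNF was -0.19 (SE 0.0561, adjusted p = 0.022), and this call was lost without control replicate 1 (0.0752) or 3 (0.0566) or TNF replicate 3 (0.0951). A second, dim probe set of Xaf1 differed by -0.29 in DEX, untested. Without DEX replicate 2 Xaf1 passed as higher in CI (0.0316) and Rtp4 as lower in TNF (0.0277).

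**Figure D3:**
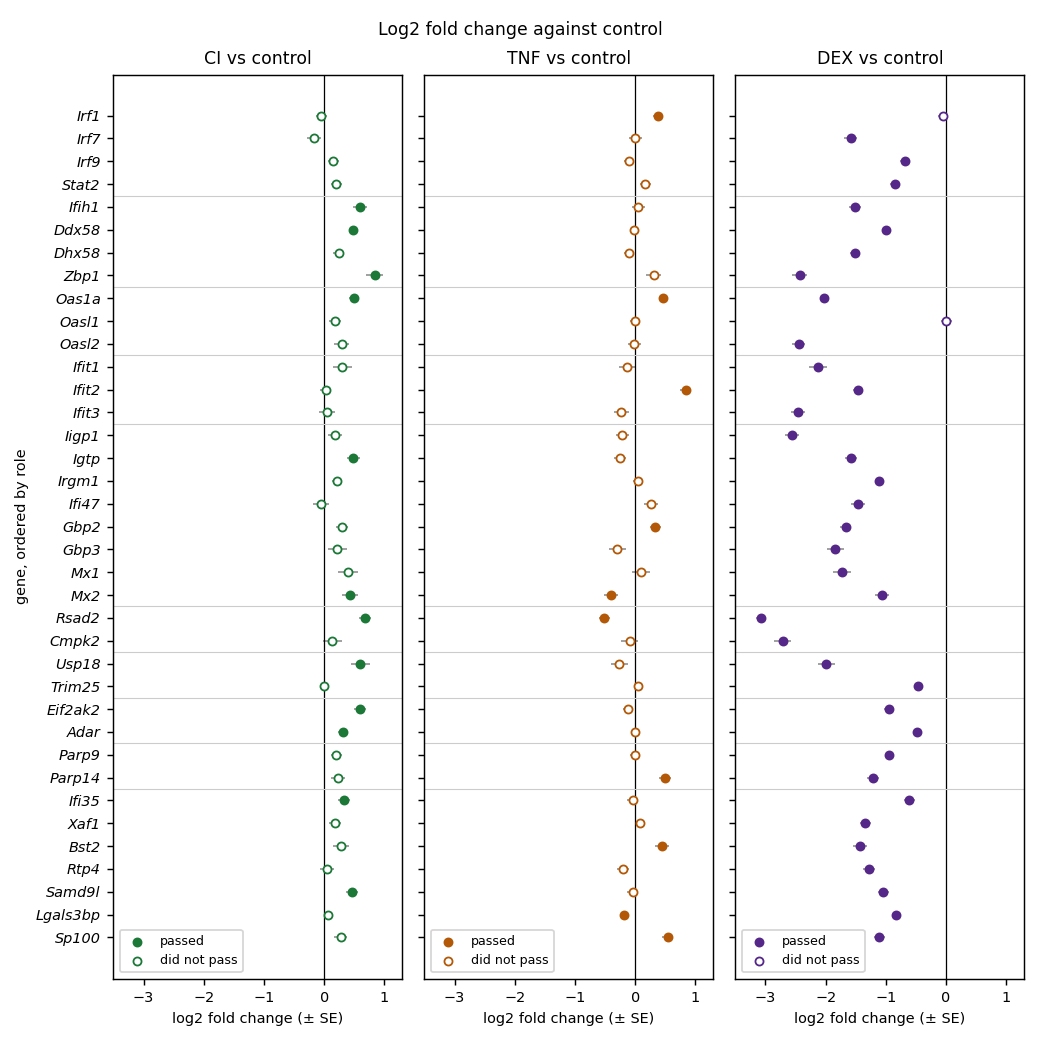
Log2 fold change against control (horizontal axis, bars are standard errors of the fit) for the 37 genes in CI, TNF and DEX, ordered by role; filled points passed at an adjusted p under 0.05 and open points did not. In DEX 35 filled points lie left of 0, from -0.47 (Trim25) to -3.07 (Rsad2), while in CI 12 filled points lie right of 0.

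The treated groups were also compared with each other. In TNF against CI 16 of the 37 genes were lower and 2 higher, where 17.3% and 18.9% of all tested genes were, with a median of -0.26 against -0.03 over all genes. Irf1 (0.43) and Ifit2 (0.81) were higher in TNF. Rsad2 (-1.19), Usp18 (-0.86), Mx2 (-0.82) and Igtp (-0.74) were lower. Rsad2 was the gene lower by more than 2-fold, which held for 0.371% of all tested genes. The number lower was 22 without DEX replicate 2 and 10 without CI replicate 2, and the number higher was 5 without DEX replicate 2 and 4 without DEX replicate 1 or 3. Among the genes lower in TNF, Adar, Dhx58 and Lgals3bp were lost without CI replicate 2 (adjusted p = 0.0754, 0.0996 and 0.0736), Ifi35 and Zbp1 without CI replicate 1 (0.083 and 0.0721), and Gbp3 and Iigp1 without either (0.0532 to 0.139). Ifit1 (-0.43, adjusted p = 0.0486) was lost under 14 of 21 alternatives.

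In DEX against CI 35 of the 37 genes were lower and 0 higher (limma, also 0 higher at an unadjusted p under 0.05), where 16.9% of all tested genes were lower and 17.1% higher. The median was -1.50, and 30 genes were lower by more than 2-fold, against 1.5% of all tested genes. Rsad2 differed by -3.75 (SE 0.0961, adjusted p = 6.15e-13) and Zbp1 by -3.27 (SE 0.143, adjusted p = 2.43e-10). In DEX against TNF 36 were lower and 0 higher (limma, also 0 higher at an unadjusted p under 0.05), where 18.2% and 18.0% of all genes were, with a median of -1.54. Irf1 was among those lower in DEX than in TNF, at -0.43 (SE 0.0879, adjusted p = 0.00138), and Oasl1 did not pass, at 0.01 (SE 0.0906, adjusted p = 0.969).

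DEX replicate 2 stood apart from the other DEX arrays in these genes. It was the highest of the 3 for 34 of the 37 genes, where this held for 43.8% of all tested genes. The summed intensity of the 37 genes was 55332 on this array and 44340 and 43161 on DEX replicates 1 and 3. The sum lay between 123500 and 129750 in control, 148470 and 151170 in CI, and 120160 and 126760 in TNF, so every DEX array lay far below every other. Without DEX replicate 2 the fall in DEX was counted for 35 genes again, with a median of -1.56. The list then had 22 increases in CI and 9 increases and 9 decreases in TNF.

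The genes around the list were described by lists of the same pathway. Of 64 other interferon-stimulated genes 47 were tested, and 36 of them fell in DEX and 1 rose (median -0.70). That is 76.6% and 2.13% of the 47, against 13.6% and 14.0% of all tested genes. The smallest p-values there were those of Gbp6 (-2.44), a guanylate-binding protein, Oas2 (-1.96), Ddx60 (-2.26), a helicase, and Ifit1bl1 (-1.65). The gene that rose was Ifi203 (0.20), named after its value was seen, whose call was lost without control replicate 1 or 3 or DEX replicate 2. In CI 19 of the 47 rose and 1, Ifi27l2a, fell (median 0.22), where 8.38% of all tested genes rose and 8.88% fell. In TNF 13 rose and 5 fell, namely Ifit1bl1, Slfn8, Ifi27l2a, Pnpt1 and Ifi27 (median 0.09). The increases were 27.7% of the 47, against 13.9% of all tested genes. The decreases, 10.6%, were close to the 11.2% of all tested genes. Without CI replicate 1 the increases in CI were 8, without CI replicate 2 they were 10 and without control replicate 1 they were 11. The decreases in TNF were 2 or 3 without control replicate 2 or 3 or any TNF array. Oas2, for example, rose in CI by 0.28, a call lost without control replicate 3 or either CI array (adjusted p = 0.0539 to 0.0819), and in TNF by 0.47, and Gbp6 rose in TNF by 0.31.

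The interferon genes, their receptors and the signalling genes were counted next, where 13.6% of all tested genes fell and 14.0% rose in DEX. In CI 8.38% of all tested genes rose and 8.88% fell, and in TNF 13.9% rose and 11.2% fell. Of 18 interferon genes 6 were tested, and 0 passed in DEX or in CI (limma; at an unadjusted p under 0.05, 1 was higher and 1 lower in DEX and 1 was higher in CI). Ifnb1 was at -0.16 (SE 0.0604, adjusted p = 0.0616) in DEX, where it passed as lower without control replicate 1 (0.0322) or DEX replicate 2 (0.0172). It fell in TNF by 0.23 (adjusted p = 0.0127), a call lost without control replicate 2 (0.0533) or 3 (0.0602). The means of Ifnb1, 114 in control and 95.4 in TNF, lay below the median of all probe sets (129). At such a low signal a change in background and a change in Ifnb1 RNA cannot be told apart. Of 9 tested genes for interferon receptors and their JAK kinases 3 rose and 2 fell in DEX, or 1 without control replicate 1 or DEX replicate 2. Besides those described next, Tyk2 and Il10rb rose and Ifngr2 fell. Ifngr1, a chain of the interferon gamma receptor, rose by 0.98, from 1013 ± 122 to 2003 ± 111, and Ifnar2, a chain of the type I receptor, fell by 0.40, from 2196 ± 65 to 1659 ± 67.7. The fall of Ifnar2 did not pass with the mean of all its probe sets (adjusted p = 0.117). In TNF 7 of the 9 rose and 0 fell (limma, also 0 lower at an unadjusted p under 0.05), among them Ifnar2 (0.66) and Ifngr1 (0.39).

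Among 16 tested genes of the signalling that leads to interferon, 2 fell and 1 rose in DEX. The receptor of double-stranded RNA in endosomes, Tlr3, fell by 1.50, from 778 ± 33.1 to 267 ± 42.3, and rose in CI by 0.45. The adaptor gene Myd88 fell by 0.26, and Irf3 rose by 0.19, a call lost without control replicate 2 (adjusted p = 0.14) or DEX replicate 2 (0.0886). In CI Tlr3, Myd88, Mavs and Tbk1 rose (4 of 16, or 2 of 16 without CI replicate 1) and 0 of the 16 fell (limma; 1 lower at an unadjusted p under 0.05). In TNF Sting1, Tlr4, Tbk1 and Ikbke rose and Mavs fell. Of 10 negative regulators of interferon signalling 1 fell in DEX, Socs1 (-0.28), lost without control replicate 1 (0.0682) or DEX replicate 1 (0.0587). In TNF 2 of the 10 rose, Ptpn2 and Socs3 (1.07), an inhibitor of JAK kinases.

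**Figure D4:**
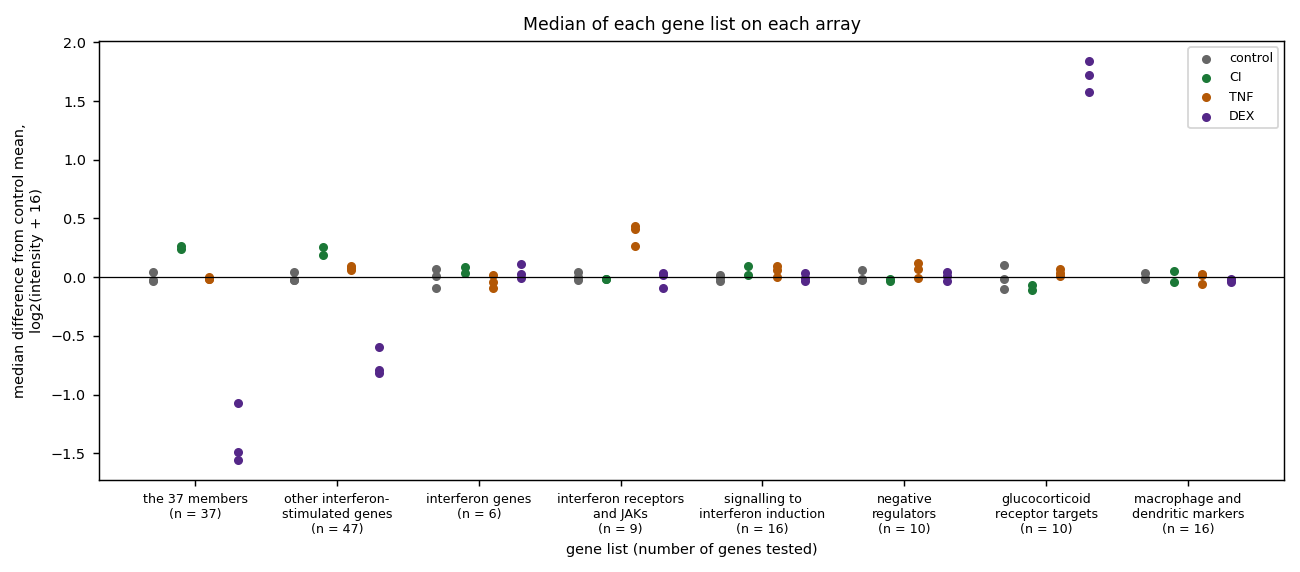
Median difference from the control mean on the log2(intensity + 16) scale (vertical axis) for each gene list, with 1 point per array coloured by group and the number of genes tested under each list. In DEX the 37 genes lie at -1.08 to -1.56, the other interferon-stimulated genes at -0.59 to -0.81 and the glucocorticoid receptor targets at 1.58 to 1.84, while the interferon genes lie at -0.01 to 0.11.

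Markers of macrophages and dendritic cells, which also express these genes strongly, were compared in the same arrays. The marker counts below stand beside the shares of all tested genes. In DEX 14.0% of all tested genes rose and 13.6% fell. In CI 8.38% rose and 8.88% fell, and in TNF 13.9% rose and 11.2% fell. Of 19 macrophage and dendritic cell markers 16 were tested. In DEX 1 rose (6.25%), Cd14 (0.90), and 3 fell (18.8%), Mpeg1 (-1.67), Itgb2 (-0.96) and Lyz2 (-0.62). In CI 1 rose, Mpeg1, and 2 fell, Lyz2 and Cd14. In TNF 3 rose, Cd14, Lyz2 and Cd53, and 1 fell, Laptm5, or 2 without control replicate 3 or TNF replicate 1 or 2. The increases in DEX were 2 without control replicate 1, and the decreases in CI were 4 without CI replicate 2. The summed level of the 19 was 6037 to 6256 in control, 5312 to 5673 in CI, 7364 to 7796 in TNF and 4722 to 5130 in DEX. None was listed at 0. Ptprc, the common leukocyte antigen, had means of 24.1 to 26.2 in the 4 groups, and the means of Ptprc, Itgam and Bst1 over all arrays lay under the limit of 51.7 for dim genes, so these 3 were not tested. The macrophage marker Adgre1 was at 108 ± 4.61 in control and 107 ± 5.59 in DEX. The part of such cells in the result was not tested. Of 10 preadipocyte and fibroblast markers 5 fell in DEX (Col3a1, Pdgfrb, Col1a1, Dlk1 and Thy1) and 2 rose (S100a4 and Vim), while in CI 5 fell (Dlk1, S100a4, Thy1, Acta2 and Pdgfra) and 0 rose (limma, also 0 higher at an unadjusted p under 0.05). In TNF 4 of the 10 rose (Pdgfrb, S100a4, Acta2 and Pdgfra) and 0 fell (limma; 1 lower at an unadjusted p under 0.05, and 1 fell without CI replicate 1 or 2). Of 10 adipocyte markers 4 fell in DEX (Slc2a4, Pparg, Cebpa and Lipe) and 2 rose (Pnpla2 and Cidec). In TNF 6 of the 10 fell (Slc2a4, Pnpla2, Cebpa, Cidec, Lipe and Retn) and 0 rose (limma, also 0 higher at an unadjusted p under 0.05). For all 10 every TNF array lay below every control array, which held for 21.3% of all tested genes. In CI 1 of the 10 adipocyte markers rose and 1 fell. The summed level of the adipocyte markers was 125870 to 127530 in control and 121610 to 123540 in CI. It was 103260 to 106060 in TNF and 122210 to 131340 in DEX. Only 1 preadipocyte marker rose in DEX without any 1 control array or without DEX replicate 1 or 3, and 1 adipocyte marker without control replicate 2. The part of these cells in the DEX, CI and TNF results was not tested either.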

How the data were processed

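RNA of the 11 samples was measured on a 1-colour Affymetrix mouse array with 45101 probe sets. The authors deposited 1 linear intensity per probe set and array, from 6.01 to 25933, already summarised. Their summarisation and scaling steps were not given in the sources used here. Quartiles were close between arrays, differing by at most 0.0737 on the log2 scale, so no further scaling was applied.

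Groups followed the labels. From the deposited intensities log2(intensity + 16) was computed, which understates the changes of dim genes. The 64 control probe sets, the 932 probe sets with several symbols and the 9160 without one were left out. Probe sets were named from GEO's platform annotation. Through its gene identifiers 34741 probe sets matched RefSeq, and 0 symbols changed. The brightest of the probe sets of a gene was used, and a gene was tested where its mean reached the 25th percentile over the probe sets (51.7). All 11 arrays entered 1 linear model with group means (limma 3.58.1 in R 4.3.3), with two-sided moderated tests adjusted by Benjamini-Hochberg over 15623 genes, and a gene passed at an adjusted p under 0.05. Fold changes and their standard errors (SE) are on the log2(intensity + 16) scale. The fit was tested on simulated data. Alternatives covered the scaling, the pseudocount, the filter on dim genes, the choice of probe sets, the arrays in the fit, the replicate number as a block, and leaving out each array.

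The members, lists and tests were chosen with earlier results of these data known. Any member could be named. Values in every array are given for the member of each role class with the largest change in DEX (both in a class of 2), for members that passed in CI or TNF with a log2 change of at least 0.5, for those that did not pass in DEX and for those that passed in opposite directions, and for the other members that passed in CI or TNF. From the other lists, up to 4 genes with the smallest adjusted p in DEX were named, with Ifnb1, Fkbp5, Tsc22d3 and the markers that define a cell type. Other genes behind a count of 5 or fewer were named after their values were seen.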

Additional observations from a re-analysis of the deposited data

How the results depend on the processing

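Every fall in DEX kept its direction and its side of the threshold under all 21 alternatives, as did the 2 genes that did not pass, and the median over the list ranged from -1.22 (mean of all probe sets) to -1.56. The DEX comparisons with CI and TNF likewise changed no call of a member. No value reversed among those that had passed. The CI and TNF counts depended more on the settings. The increases in CI (12) were 20 with only the CI and control arrays in the fit and 8 to 22 when 1 array was left out. The decreases in TNF (3) were 9 with only the TNF and control arrays and 1 to 9 when 1 array was left out. In TNF against CI the genes higher (2) were 4 with the replicate block, 5 with median centring, 5 with only the TNF and CI arrays, and 2 to 5 when 1 array was left out, while the genes lower (16) were 24 with only the TNF and CI arrays and 10 to 22 when 1 array was left out. The cause was not tested, and the fits that leave out arrays hold fewer samples.

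Deviations of arrays with the same replicate number correlated at -0.287 to 0.341, with 6 of 15 pairs over 0.1, so some such arrays deviated together and others did not, and the numbers were not treated as pairing the samples. With the replicate number as a block 11 genes rose in CI, 7 rose and 3 fell in TNF, and 35 fell in DEX. Ifi35 was the call in CI that was lost with the block (adjusted p = 0.0519). With 2 or 3 arrays per group small changes cannot be resolved, and dim genes near the lower limit of 51.7 carry little signal over background.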
